A study of Mus musculus with 12 samples.

Results

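The genes described here encode the oxidative phosphorylation system of the mitochondrion. They were taken from the deposited count table as the protein-coding genes that lie on the mitochondrial chromosome (MT) or whose symbols belong to the Nduf, Sdh, Uqcr, Cox4 to Cox8 and Atp5 families. This gave 104 of the 41128 genes of the table, of which 13 were MT-encoded and 91 nuclear-encoded. A filter on low counts left 92 of them for testing, 7 MT-encoded and 85 nuclear-encoded, among 15347 tested genes in all.

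Oxidative phosphorylation passes electrons from NADH and succinate along complexes I to IV to oxygen, and the proton gradient that these complexes build drives ATP synthase, complex V. Complex II is wholly encoded in the nucleus, whereas the other complexes combine subunits of both genomes. The MT-encoded mRNAs are cut out of long precursor transcripts made from each strand of the mitochondrial DNA, and nuclear genes supply the polymerases, transcription factors and assembly factors.

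The cells were mouse haemogenic endothelium, the endothelium from which the first blood cells emerge, grown from the iSox7 derivative of the Ainv18 embryonic stem cell line. FLK1+ cells of embryoid bodies at day 3.5 had been kept in culture for 48 h when treatment began. The Dox groups then received 1 µg/ml doxycycline, which switches on Sox7, for 6, 12 or 24 h, and the no Dox groups were harvested at the same hours without it. Each of the 6 groups had 2 libraries, and the libraries were not said to come from separate cultures, so the p-values measure a spread that may be technical. All groups carry the inducible Sox7 on 1 cell line background, and doxycycline is a tetracycline, a class of antibiotic known to act on mitochondrial ribosomes. No group received Dox without the transgene, so the drug and SOX7 cannot be told apart in any Dox comparison.

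Sox7 stood at 314 to 379 CPM (counts relative to the scaled library size) in the 6 Dox libraries, against 52.1 to 81.7 CPM in the 6 no Dox libraries. Library totals ran from 13485804 to 35250074 counts. Markers of 6 cell types were summed per library, and all 5 markers of each list were detected in every library. Erythroid markers summed to 835 to 1057 CPM in Dox libraries at 24 h, against 1922 to 2144 CPM in no Dox libraries, and myeloid markers to 26.3 to 30.3 CPM against 91.4 to 93.4 CPM. Endothelial markers summed to 1778 to 1867 CPM at 24 h with Dox, against 1467 to 1472 CPM without it, and haemogenic markers to 319 to 331 CPM against 376 to 445 CPM. Against its list, endothelial Emcn was lower with Dox, at 6.108 and 7.035 CPM against 7.435 and 7.829 CPM. Likewise, haemogenic Gfi1 was higher, at 8.833 and 7.968 CPM against 4.433 and 5.644 CPM. Kit stood at 142 CPM in no Dox replicate 1 and at 81.8 CPM in no Dox replicate 2, which widened the haemogenic range. Mesenchymal markers summed to 8135 to 8198 CPM with Dox at 24 h, against 8788 to 9027 CPM without it, although Acta2, the highest of them, stood at 5313 and 5381 CPM against 5243 and 5163 CPM. Cardiac sums overlapped, at 37.2 to 39.6 CPM against 36.9 to 38.5 CPM, although Tnnt2, Myh6 and Nkx2-5 were higher with Dox and Actc1 and Myl7 lower. At 6 h with Dox, endothelial markers summed to 2080 to 2235 CPM, against 1920 to 1936 CPM without it. Haemogenic markers summed to 264.3 to 281.2 CPM at 6 h against 314.5 to 318.2 CPM, and erythroid markers to 1101 to 1170 CPM against 1270 to 1432 CPM. Myeloid markers summed to 18.92 to 21.62 CPM at 6 h against 29.5 to 32.02 CPM, though Csf1r was higher with Dox. At 12 h with Dox, endothelial markers summed to 1936 to 2047 CPM, against 1598 to 1770 CPM without it, and haemogenic markers to 293 to 315 CPM against 326 to 350 CPM. Here too Gfi1 was higher with Dox, at 8.047 and 9.304 CPM against 6.694 and 6.964 CPM. Myeloid markers then summed to 25.1 to 29.2 CPM, against 43.9 to 51.4 CPM, and the erythroid sums overlapped. Mesenchymal markers summed to 6284 to 6855 CPM against 7102 to 7363 CPM, although Col1a1, Postn and Col3a1 overlapped between the groups. Cardiac markers summed to 42.1 to 48.9 CPM against 49.9 to 55.2 CPM. Against its list, Myh6 was higher with Dox, at 1.732 and 1.476 CPM against 0.783 and 0.757 CPM, and Tnnt2, Nkx2-5 and Myl7 overlapped. The part of this shift in the results below was not tested, and in such mixed bulk samples fewer cells of a type and less RNA per cell cannot be told apart.

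The mitochondrial genome was only partly counted. Of the 13 MT-encoded genes, 6 stood at 0 counts in all 12 libraries: mt-Co2 and mt-Co3, subunits of cytochrome c oxidase, mt-Atp6 and mt-Atp8, subunits of ATP synthase, and mt-Nd3 and mt-Nd4l, subunits of complex I. The other 6 MT-encoded genes besides mt-Nd6 each held at least 333965 counts over the 12 libraries. The genes at 0 are neighbours on the mitochondrial chromosome. Every 75-base window of each gene, the length of the reads, was looked up in the GENCODE M21 transcripts of all other genes on GRCm38. Between 97.8% of windows in mt-Nd3 and 99.9% in mt-Co3 were found letter for letter in another gene for 5 of the 6. Their matches were unprocessed pseudogenes on chromosome 1, of which the copies of mt-Co2, mt-Co3, mt-Atp6 and mt-Nd4l were identical over the whole alignment. In mt-Atp8, which lies between mt-Co2 and mt-Atp6, no window was shared with another transcript, and its closest nuclear transcript was 81.4% identical; the genome sequence around these copies was not used here.

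The first 120 bases of mt-Co2 and of its copy Gm28661 are shown as an example of a gene at 0, and the lines differ at no base. They lie at MT:7013-7132 on the plus strand and at chr1:24615446-24615565 on the minus strand of GRCm38. The mt-Nd2 stretch below is shown because mt-Nd2 was the gene of the system with the largest called difference under Dox; its best nuclear copy, Gm13339, covers a later part of the gene. It lies at MT:4442-4561 on the plus strand, and the copy at chr2:22590414-22590533 on the minus strand. Capitals mark the substitutions T51C, T75A and C110T, counted from the first base shown, with the base of mt-Nd2 first. Sequences are from the GENCODE transcripts.
mt-Co2: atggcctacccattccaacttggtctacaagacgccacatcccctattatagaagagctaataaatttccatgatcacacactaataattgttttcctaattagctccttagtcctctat
Gm28661: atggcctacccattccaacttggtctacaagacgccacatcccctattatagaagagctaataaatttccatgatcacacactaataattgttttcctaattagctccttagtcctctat
mt-Nd2: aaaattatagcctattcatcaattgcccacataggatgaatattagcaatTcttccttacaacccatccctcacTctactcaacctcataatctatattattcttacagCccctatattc
Gm13339: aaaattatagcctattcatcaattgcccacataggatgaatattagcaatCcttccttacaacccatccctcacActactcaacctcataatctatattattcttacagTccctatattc

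Counted MT-encoded genes shared far less. No window of mt-Nd1, mt-Cytb or mt-Nd6 was shared, 1.66% of those of mt-Nd5 were, 5.71% of mt-Nd2, 39.8% of mt-Co1 and 61.5% of mt-Nd4. The table counted few reads on the copies themselves: 5 over the 12 libraries on Gm13339, 28 on the copy of mt-Nd4 and 0 on those of mt-Co2, mt-Co3 and mt-Atp6. The copy of mt-Nd3 held 204 counts, and Gm13340, the closest copy of mt-Co1, held 876. The sources used here do not say how reads with several matches were counted, so the counts of mt-Co1 and mt-Nd4 may cover only part of each gene. Among the 91 nuclear-encoded genes, 58 had no shared window and 17 shared over 10%. The highest share was 80.7% in Ndufaf2, an assembly factor of complex I. Windows came from the longest transcript, of 2404 bases in Ndufaf2, whereas its deposited level per gene length implied 738 bases. For some of the 17, such as Ndufs3 and Cox7a2l, the other gene lay on another chromosome. For others, such as Cox4i1 with Emc8, Atp5j with Gabpa and Ndufb6 with Smim27, it overlapped the gene at the same place. Counts of these 17 are uncertain in either case. Beside the 6 MT-encoded genes, 6 nuclear-encoded genes failed the filter on low counts. They were the tissue-restricted subunits Cox6a2, Cox7a1, Cox7b2, Cox8b and Cox8c, and Ndufs5, an accessory subunit of complex I with 27 counts over the 12 libraries and 24.1% of its windows shared. At the edge of the filter, Atp5l, a membrane subunit of ATP synthase, passed with 72 counts, and Cox7a1 failed with 67.

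**Figure D1:**
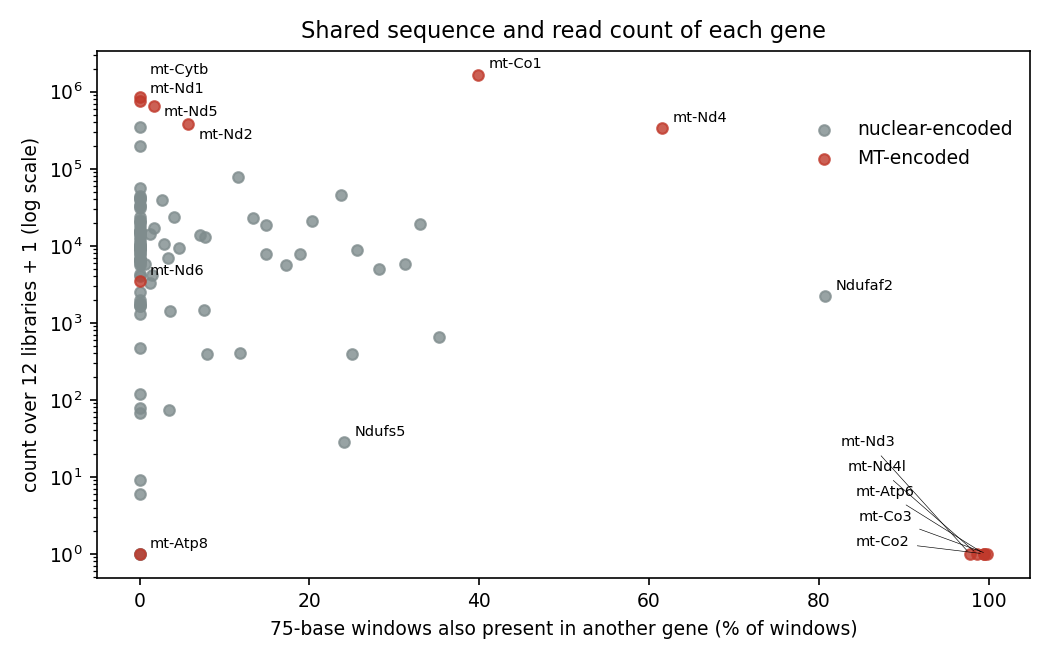
Share of each gene's 75-base windows also present in another gene (x axis, % of windows) against its count over the 12 libraries plus 1 (y axis, log scale), for 13 MT-encoded (red) and 91 nuclear-encoded genes (grey). The 5 MT-encoded genes at 97.8% to 99.9% shared windows sit at a count of 0, as does mt-Atp8 with 0% shared, while mt-Nd4 at 61.5% and mt-Co1 at 39.8% were counted.

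Levels differed by orders of magnitude between genes. On the deposited RPKM scale (reads relative to gene length and library size), averaged over the 12 libraries, the 7 tested MT-encoded genes had a median level of 1212, from 22.5 for mt-Nd6, the complex I subunit made from the other strand of the mitochondrial DNA, to 3586 for mt-Co1, the catalytic core of cytochrome c oxidase. The 85 tested nuclear-encoded genes had a median level of 23.6 RPKM, from 0.258 for Ndufa4l2 to 276 for Atp5b, the catalytic beta subunit of ATP synthase. In complex I, mt-Nd1, a membrane subunit, stood at 2647 RPKM, and Ndufb9 was the highest nuclear-encoded subunit at 108 RPKM. In complex II the highest was Sdhd, a membrane anchor, at 108 RPKM. In complex III mt-Cytb, the cytochrome b subunit, stood at 2522 RPKM and Uqcrfs1, the Rieske iron-sulfur protein, at 82.7 RPKM. In complex IV the highest nuclear-encoded level was that of Cox8a, at 242 RPKM. All of these are levels per length, so they can be set side by side only within limits. Genes with shared windows may be counted in part. The levels also depend on the gene lengths behind the deposited RPKM. Counts and RPKM implied 4608 bases for Atp5b and 593 for Cox8a, while their longest transcripts held 1916 and 550 bases. For Ndufa4 the implied length was the shorter, at 535 against 1232 bases.

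Where a subunit has alternative forms, the widely expressed form was the abundant one in these cells. Cox4i1 averaged 169 RPKM, against 0.457 RPKM for Cox4i2, the form known from lung and low oxygen. Cox6a1 averaged 82.3 RPKM and the muscle form Cox6a2 0.0231 RPKM, and Cox6b1 averaged 106 RPKM and the testis form Cox6b2 3.99 RPKM. Cox7a2 and Cox7a2l, of which Cox7a2l joins complexes III and IV into supercomplexes, averaged 41.0 and 66.1 RPKM, and the muscle form Cox7a1 0.597 RPKM. Cox7b averaged 30.1 RPKM and Cox7b2 0.0431 RPKM. Cox8a was at 242 RPKM while Cox8b and Cox8c were listed at 0 in all 12 libraries. Ndufa4, named for complex I but also known as a subunit of complex IV, averaged 100.2 RPKM, against 0.258 RPKM for its paralog Ndufa4l2. No test was made of differences between genes.

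With Dox, mt-Nd2 rose at 6 h and 24 h, mt-Cytb and mt-Nd4 rose at 24 h, and mt-Co1 fell at 12 h. Of the 85 tested nuclear-encoded genes, 5 at 12 h and 1 at 24 h passed the test, and all of them fell. At those hours 3.51% and 6.52% of all tested genes were called lower. MT-encoded genes took 1.86% and 1.85% of all counts in the Dox libraries at 6 h, against 1.90% and 1.58% without Dox. They took 1.51% and 1.43% with Dox at 12 h, against 1.64% and 1.54% without it, and 2.04% and 1.70% with Dox at 24 h, against 1.65% and 1.63% without it. The Dox libraries thus overlapped with the no Dox libraries at 6 h, lay below them at 12 h and above them at 24 h. Summed over the 91 nuclear-encoded genes, Dox libraries held 6206 and 6734 CPM at 6 h, against 6594 and 6338 CPM without Dox. They held 5852 and 6018 CPM at 12 h, against 6437 and 6224 CPM, and 5746 and 5510 CPM at 24 h, against 5947 and 5847 CPM. The nuclear-encoded sum was lower in both Dox libraries than in both no Dox libraries at 12 h and 24 h.

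At 6 h of Dox, 1 of the 92 tested members was called at an adjusted p under 0.05 (edgeR quasi-likelihood, Benjamini-Hochberg over all tested genes), where 1.54% of all tested genes were called. It was mt-Nd2, a membrane subunit of complex I, at 1664 and 1638 CPM in Dox libraries, against 1432 and 1201 CPM in no Dox libraries. Both Dox libraries were higher, and the log2 fold change was 0.33 ± 0.08 (standard error, SE; adjusted p = 0.0211, n = 2 each, edgeR). Leaving out no Dox replicate 2 brought it to 0.20 with an adjusted p of 0.596 and leaving out either Dox library also ended the call, with the lone library assumed to vary like the other groups. None of the 85 nuclear-encoded members was called by edgeR, 39 lay below 0, where 48.3% of all tested genes did, and their median log2 fold change was 0.02, against 0.01 over all tested genes. Over all members, 7 had an unadjusted p under 0.05 by edgeR, a share not counted over all tested genes, and DESeq2 called 0.

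At 12 h, 6 members fell and none rose; edgeR called 3.51% of all tested genes lower and 3.26% higher at that hour. The one MT-encoded gene among them was mt-Co1, at 5269 and 4660 CPM with Dox, against 5943 and 5941 CPM without Dox (log2 fold change −0.26 ± 0.06, adjusted p = 0.00909, n = 2 each, edgeR). Leaving out Dox replicate 2 brought it to −0.17 and ended the call, and neither DESeq2 nor limma on RPKM called it. Of the 5 nuclear-encoded genes, Atp5c1, the gamma subunit that forms the rotating shaft of ATP synthase, had the smallest adjusted p, 0.0107 by edgeR, with 138 and 135 CPM with Dox, against 167 and 155 CPM without Dox (−0.24 ± 0.06, n = 2 each). Sdhd stood at 141 and 143 CPM with Dox, against 171 and 165 CPM without it (−0.24 ± 0.07). Both Dox libraries were below both no Dox libraries for each of these genes. Atp5c1 kept its call without no Dox replicate 2 and lost it without any other of the 4 libraries, and Sdhd lost it without any 1 of them, with adjusted p-values of up to 0.154 and 0.228.

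The remaining called genes at 12 h were accessory or stalk subunits. Ndufa1, an accessory subunit of complex I, stood at 19.4 and 23.9 CPM with Dox, against 28.3 and 26.1 CPM without Dox (log2 fold change −0.34 ± 0.10). Ndufb6, another accessory subunit, stood at 19.2 and 19.6 CPM, against 28.3 and 22.2 CPM (−0.35 ± 0.11, adjusted p = 0.04997, edgeR, n = 2 each). It shared 31.3% of its windows with the overlapping gene Smim27, so its counts are uncertain. Atp5f1, the b subunit of the peripheral stalk of ATP synthase, stood at 129 and 139 CPM, against 164 and 152 CPM (−0.23 ± 0.07). These calls were near the threshold: Atp5f1 lost its call in 11 of 15 alternative settings and Ndufb6 in 12. Leaving out no Dox replicate 1 or Dox replicate 1 ended all 3 calls; the first brought Ndufb6 to −0.19, and the second brought Ndufa1 to −0.17. Without no Dox replicate 2, Ndufa1 and Atp5f1 were not called, and without Dox replicate 2, Ndufb6 and Atp5f1 were not.

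Below the threshold, the nuclear-encoded genes at 12 h lay mostly on 1 side. Of 85 tested, 71 had a log2 fold change below 0, which is 83.5%, against 52.2% of all tested genes, and their median was −0.11, against −0.01 over all tested genes. Accessory subunits of complex I counted 27 of 29 below 0 and cytochrome c oxidase subunits 12 of 13, while core nuclear-encoded subunits of complex I counted 4 of 7 and ATP synthase subunits 11 of 17. Members share their libraries, so these shares describe 4 libraries and carry no test. Without no Dox replicate 1 the median was −0.05 with 59 of 85 below 0, and without Dox replicate 1 it was −0.05 with 61 of 84 below 0.

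At 24 h, 3 members rose, all of them MT-encoded, and 1 nuclear-encoded member fell; edgeR called 4.5% of all tested genes higher and 6.52% lower at that hour. The level of mt-Nd2 was 1904 and 1467 CPM with Dox, against 1185 and 1132 CPM without Dox (log2 fold change 0.54 ± 0.08, adjusted p = 6.12e-06, n = 2 each, edgeR). It kept its call in all 15 alternative settings, with adjusted p-values of 3.31e-29 to 0.0391, and without Dox replicate 1 the difference was 0.35 with an adjusted p of 0.0018. Levels of mt-Cytb were 4104 and 3326 CPM with Dox, against 3086 and 2932 CPM without it (0.30 ± 0.07, adjusted p = 0.00332, n = 2 each, edgeR). Both Dox libraries were higher in each case, and Dox replicate 1 was the highest of all 12 libraries.

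The third was mt-Nd4, a proton-pumping subunit of complex I, at 1595 and 1262 CPM with Dox, against 1197 and 1148 CPM without Dox (log2 fold change 0.29 ± 0.08, adjusted p = 0.0121, n = 2 each, edgeR). Without Dox replicate 1, the difference was 0.15 for mt-Cytb and 0.12 for mt-Nd4, and neither was called, with adjusted p-values of 0.209 and 0.416. Leaving out no Dox replicate 2 also ended both calls, and leaving out no Dox replicate 1 that of mt-Nd4. Neither mt-Cytb nor mt-Nd4 was called by DESeq2 or by limma on RPKM. Uqcrc1, a core protein of complex III, stood at 67.0 and 61.8 CPM with Dox, against 75.6 and 74.5 CPM without it (−0.21 ± 0.07, adjusted p = 0.0434, n = 2 each, edgeR). It lost its call in 8 of 15 alternative settings, with adjusted p-values of 0.0316 to 0.37 over them all, and it was called in only 1 of the 4 fits without a library, the one without Dox replicate 1.

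The other 4 tested MT-encoded genes were not called at 24 h. The values of mt-Nd1 were 3096 and 2483 CPM with Dox, against 2755 and 2623 CPM without it, and those of mt-Nd5, a proton-pumping subunit of complex I, were 2848 and 2378 CPM against 2277 and 2361 CPM. Those of mt-Co1 were 6952 and 6244 CPM with Dox, against 6023 and 6157 CPM without it. The lowly counted mt-Nd6 stood at 11.9 and 12.2 CPM with Dox, against 6.65 and 10.9 CPM without it. Among these 4 genes, the Dox and no Dox libraries overlapped only for mt-Nd1. How often the groups stand apart over all tested genes was not counted. The MT-encoded genes share the same libraries, so they are not separate observations. The median log2 fold change of the 7 MT-encoded genes was 0.29, against −0.07 for the 85 nuclear-encoded genes. Of these 85, 71 again lay below 0, where 52% of all tested genes did. Without Dox replicate 1 the median was 0.12 for the MT-encoded genes and −0.14 for the nuclear-encoded genes, and without Dox replicate 2 the nuclear-encoded median was −0.03, with 48 of 85 below 0.

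**Figure D2:**
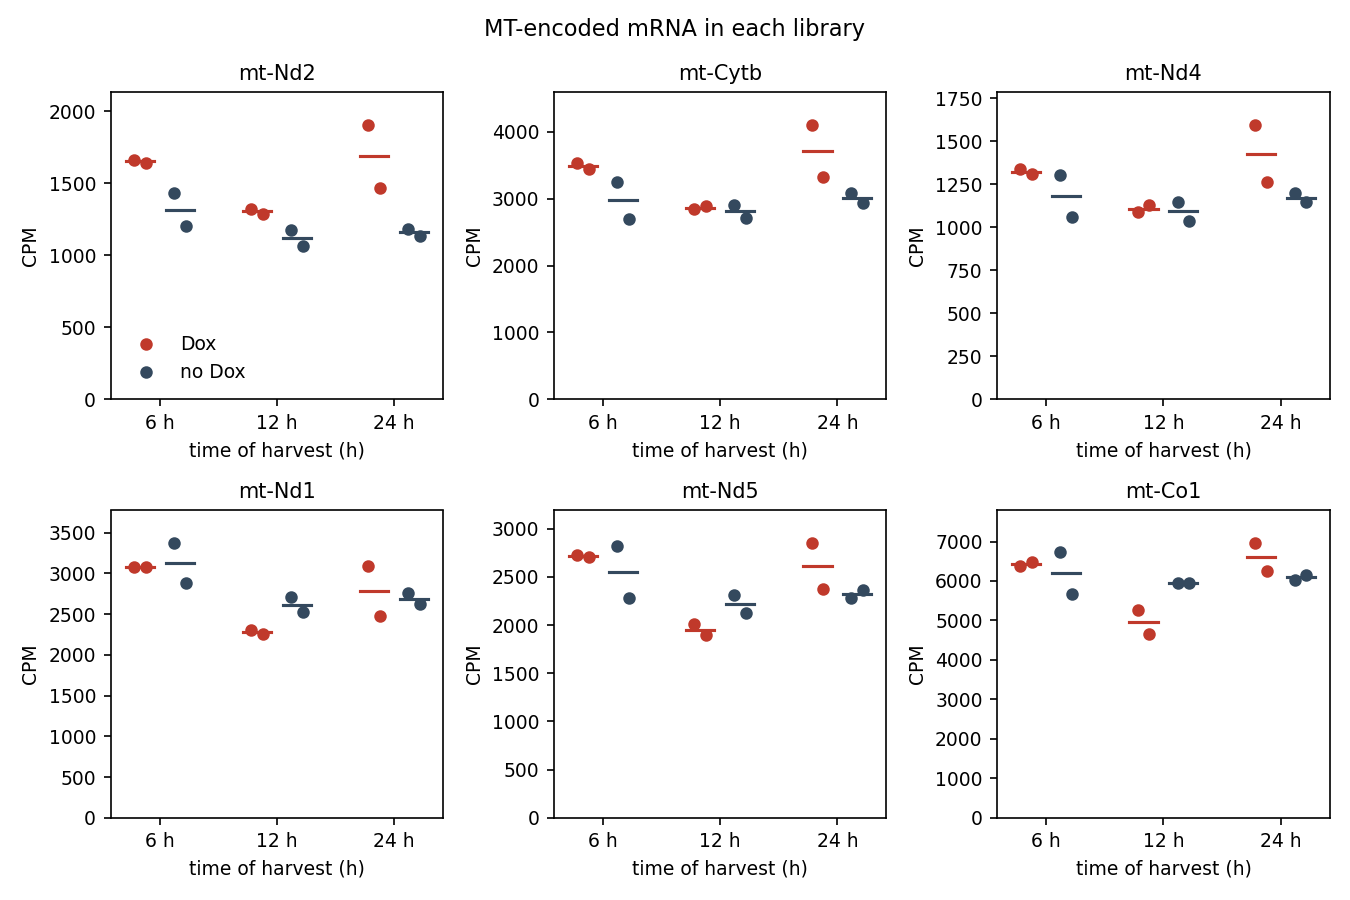
Level of 6 MT-encoded mRNAs (y axes, CPM, from 0) at 6, 12 and 24 h (x axes), with 1 point per library, Dox (red) left of no Dox (blue), and a line at the mean of the 2 libraries. At 24 h the Dox libraries of mt-Nd2 were at 1904 and 1467 CPM, above the no Dox libraries at 1185 and 1132 CPM, while those of mt-Nd1 spanned the no Dox libraries.

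**Figure D3:**
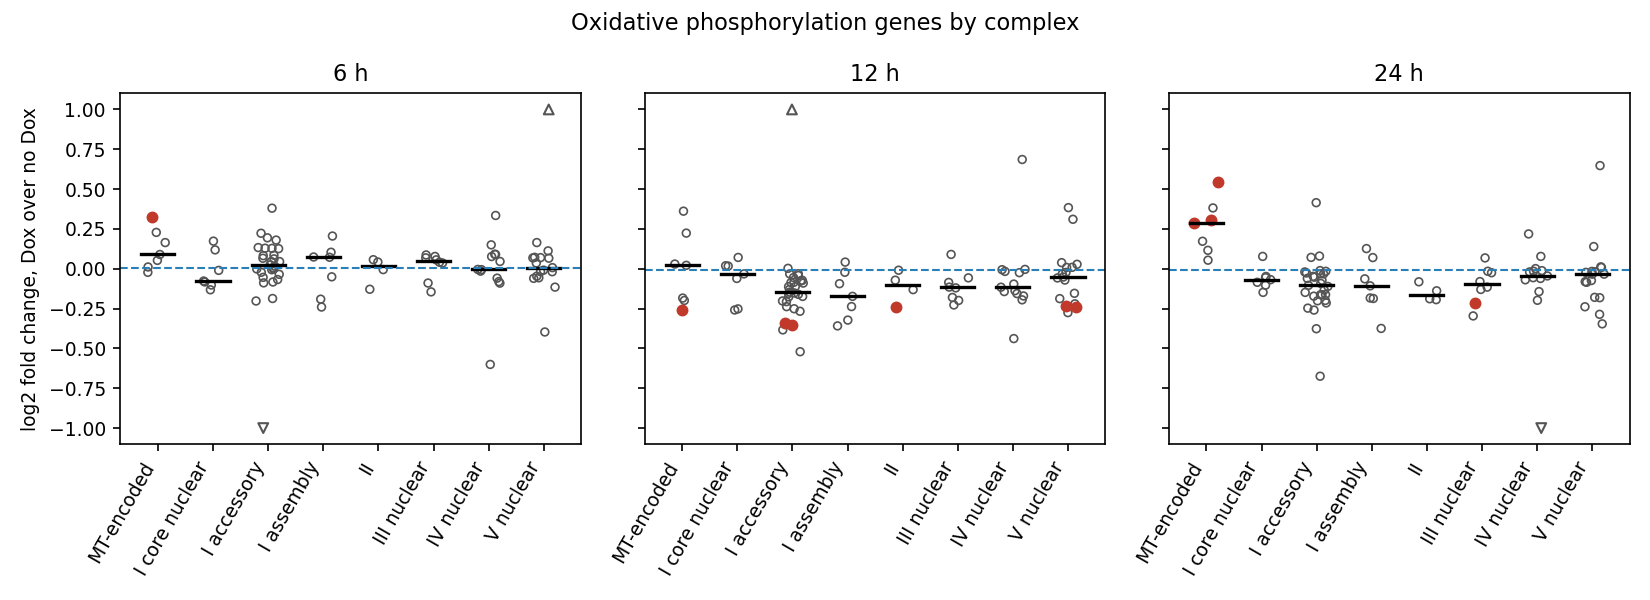
Fitted log2 fold change, Dox over no Dox, of the 92 tested members (points) at each hour, grouped by genome and complex, with the median of each group (black bars) and of all tested genes (dashed line); filled red points were called, and triangles mark values beyond the axis. At 24 h the 3 called MT-encoded genes lie at 0.29 to 0.54, and most nuclear-encoded genes lie just below 0.

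The MT-encoded RNAs also differed relative to each other within a library, a measure that does not depend on how the libraries are scaled. The ratio of mt-Nd2 to mt-Nd1 counts was 0.540 and 0.533 with Dox at 6 h, against 0.425 and 0.417 without Dox. It was 0.574 and 0.572 with Dox at 12 h, against 0.434 and 0.421, and 0.615 and 0.591 with Dox at 24 h, against 0.430 and 0.432. All 6 Dox libraries, at 0.533 to 0.615, lay above all 6 no Dox libraries, at 0.417 to 0.434. The mean ratio was 1.27, 1.34 and 1.40 times as high with Dox at 6, 12 and 24 h. These ratios were chosen after the values had been seen, and no test was made of them.

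Other ratios to mt-Nd1 moved in either direction. That of mt-Cytb was 1.19, 1.17 and 1.19 times as high with Dox at 6, 12 and 24 h, and that of mt-Nd4 1.14, 1.17 and 1.17 times as high, with both Dox libraries above both no Dox libraries at each hour. The ratio of mt-Nd5 was 1.08, 1.01 and 1.09 times as high, and the groups overlapped at 12 h. That of mt-Co1 overlapped at 12 h and 24 h. The 2 mitochondrial ribosomal RNAs went the other way: the ratio of mt-Rnr1 to mt-Nd1 was 0.847, 0.835 and 0.788 times as high with Dox, and that of mt-Rnr2 0.927, 0.824 and 0.837 times, with both Dox libraries below both no Dox libraries at each hour. An unequal ratio within a library does not say which of the RNAs changed.

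**Figure D4:**
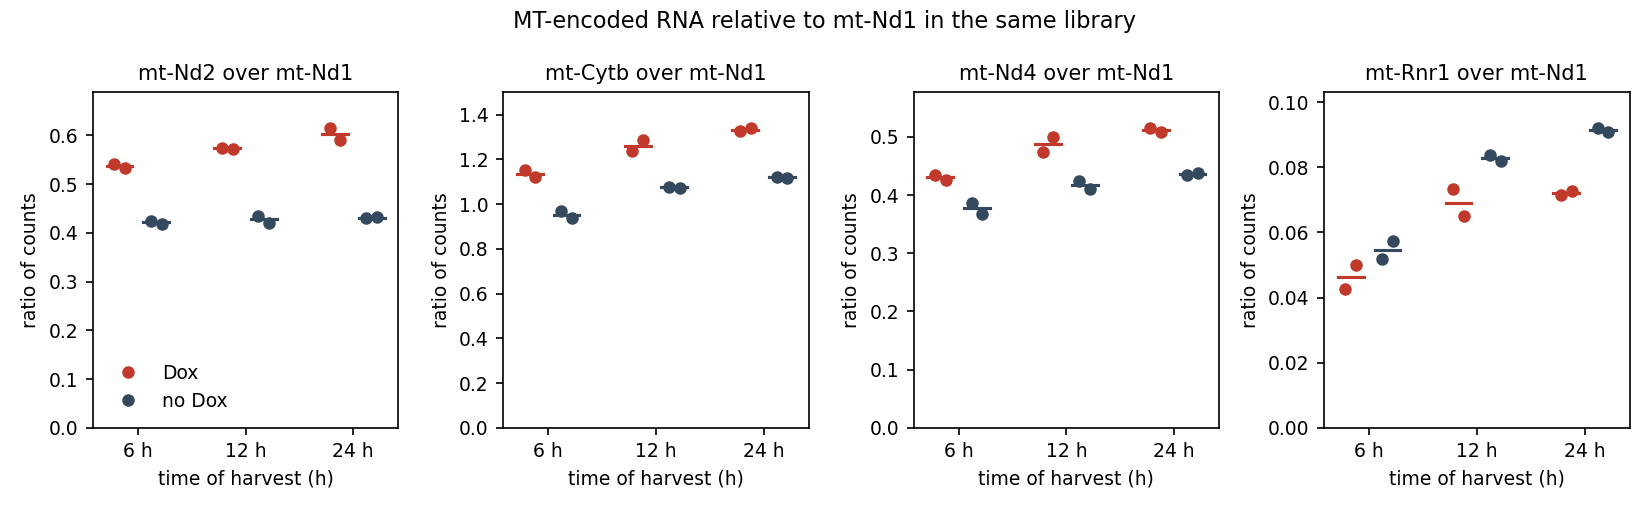
Ratio of the counts of mt-Nd2, mt-Cytb, mt-Nd4 and mt-Rnr1 to those of mt-Nd1 in the same library (y axes, from 0) at 6, 12 and 24 h (x axes), with 1 point per library, Dox (red) left of no Dox (blue), and a line at the mean of the 2 libraries. The mt-Nd2 ratio lay at 0.533 to 0.615 with Dox and at 0.417 to 0.434 without it, and the mt-Rnr1 ratio was lower with Dox at each hour.

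By level, the 12S ribosomal RNA mt-Rnr1 stood at 168 and 147 CPM with Dox at 12 h, against 227 and 207 CPM without Dox (log2 fold change −0.45 ± 0.08, adjusted p = 0.000239, n = 2 each, edgeR). The 16S ribosomal RNA mt-Rnr2 stood at 289 and 258 CPM, against 380 and 380 CPM (−0.47 ± 0.07, adjusted p = 1.68e-05, n = 2 each, edgeR). Both also fell at 24 h, by 0.28 and 0.21 on the log2 scale, at the hour at which 3 MT-encoded mRNAs rose. Neither was called at 6 h, and at 24 h neither was called by DESeq2 or by limma on RPKM. Without Dox replicate 2 the values at 24 h were −0.14 for mt-Rnr1 and −0.12 for mt-Rnr2, and neither was called; leaving out no Dox replicate 1 also ended both calls, and leaving out no Dox replicate 2 that of mt-Rnr2. Of 24 MT-encoded ribosomal and transfer RNAs in the table, 4 were tested. The sources used here do not say how ribosomal RNA was removed.

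Genes that act on the mitochondrial genome or on the supply of electrons were read from 5 further lists. At 12 h and 24 h of Dox, edgeR called 3.26% and 4.5% of all tested genes higher. Of 13 tested genes for mitochondrial transcription and upkeep of mitochondrial DNA, 1 rose at 12 h and at 24 h and none at 6 h. It was Polg, the catalytic subunit of the mitochondrial DNA polymerase, at 196 and 191 CPM with Dox at 12 h, against 154 and 160 CPM without Dox (log2 fold change 0.30 ± 0.05, adjusted p = 0.000396, n = 2 each, edgeR). At 24 h it stood at 150 and 155 CPM with Dox, against 123 and 128 CPM (0.28 ± 0.05). No gene was called at any hour of Dox among 10 nuclear regulators such as Nrf1 and Gabpa, 17 assembly factors of complex IV, 13 genes of electron carriers and coenzyme Q synthesis, and 17 genes of the TCA cycle. The list medians at 12 h were 0.01 for the regulators, −0.07 for the assembly factors, −0.16 for coenzyme Q and −0.03 for the TCA cycle, against −0.01 over all tested genes.

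In untreated cells at 24 h, against 12 h, 19 of the 92 tested members were called, where edgeR called 22.4% of all tested genes, so the count lies near the background. Without no Dox replicate 2 at 24 h, 4 members were called. Of the 19, 15 fell and 4 rose, all of them nuclear-encoded, and edgeR called 10.2% of all tested genes lower and 12.2% higher. The fall of largest size was that of Ndufaf4, an assembly factor of complex I, at 20.8 and 22.1 CPM at 24 h, against 26.1 and 29.8 CPM at 12 h (log2 fold change −0.39 ± 0.10, adjusted p = 0.00401, n = 2 each, edgeR). Sdhd stood at 142 and 128 CPM at 24 h, against 171 and 165 CPM at 12 h (−0.32 ± 0.07, adjusted p = 0.00103, n = 2 each, edgeR). Ndufb8, Ndufb6 and Cox6c, subunits of complexes I and IV, fell by 0.31, 0.31 and 0.30 on the log2 scale, and the other 10 were spread over complexes I, III and V. Without no Dox replicate 2 at 12 h Ndufaf4 was not called (adjusted p = 0.15, edgeR), and without no Dox replicate 2 at 24 h Sdhd, Ndufb8, Ndufb6 and Cox6c were not. Without replicate 1 at 12 h the last 3 of these, and without replicate 1 at 24 h Ndufb6 and Cox6c, also lost their calls.

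The 4 that rose included 3 alternative subunits. Cox6b2 stood at 8.01 and 7.16 CPM at 24 h without Dox, against 4.56 and 3.85 CPM at 12 h (log2 fold change 0.87 ± 0.19, adjusted p = 0.00126, n = 2 each, edgeR). Cox4i2 stood at 0.858 and 1.15 CPM, against 0.499 and 0.182 CPM (1.84 ± 0.60), and Ndufa4l2 at 0.786 and 0.425 CPM, against 0.214 and 0.0303 CPM (2.59 ± 0.92). Both had few reads, 117 and 77 counts over the 12 libraries. Leaving out no Dox replicate 2 at 12 h ended these 2 calls and that of Cox6b2, leaving out either library at 24 h ended the 2 calls again, and over all alternatives their log2 fold changes ran from 0.64 to 2.46 for Cox4i2 and from 0.49 to 3.98 for Ndufa4l2. The fourth was Atp5d, the delta subunit of the F1 part of ATP synthase, at 192 and 166 CPM, against 165 and 148 CPM (0.19 ± 0.06); without no Dox replicate 1 at 24 h it was 0.08, without replicate 2 at 12 h it was 0.11, and neither was called. None of the 7 MT-encoded genes was called by edgeR between 12 h and 24 h without Dox, and their log2 fold changes ran from −0.40 to 0.10.

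Genes of the further lists also fell over the same interval in untreated cells, where edgeR called 10.2% of all tested genes lower and 12.2% higher. Of the 13 genes of mitochondrial transcription and DNA upkeep, 4 fell: Polg by 0.32, Tfam, which packages mitochondrial DNA and starts its transcription, by 0.28, Tefm, an elongation factor, by 0.39, and Ssbp1, the mitochondrial single-strand binding protein, by 0.44, all on the log2 scale. Of the TCA cycle genes, 4 of 17 fell, among them Fh1, fumarate hydratase, by 0.35 and Idh3a, a subunit of isocitrate dehydrogenase, by 0.34. In the coenzyme Q list 3 of 13 fell, led by Pdss1, which makes the side chain of coenzyme Q, by 0.67. Of the 10 regulators 1 fell and 1 rose, which is near those shares. Gabpb1, a subunit of GABP, fell by 0.25 and Hif1a, the oxygen-regulated factor, rose by 0.15. None of the 17 assembly factors of complex IV was called. Without 1 library, Ssbp1 (replicate 1 at 12 h or 2 at 24 h), Tefm (replicate 1 at 24 h) and Hif1a (any but replicate 2 at 12 h) were not called. Nor were Pdss1 without replicate 2 at 24 h, or Gabpb1 without replicate 1 at 24 h or 2 at 12 h, whereas Polg and Fh1 were called in all 15 alternative settings. Of the MT-encoded ribosomal RNAs mt-Rnr2 rose by 0.19 and lost its call without any 1 of the 4 libraries. Erythroid markers summed to 1922 to 2144 CPM at 24 h without Dox, against 1203 to 2023 CPM at 12 h, which overlap, and myeloid markers to 91.4 to 93.4 CPM against 43.9 to 51.4 CPM. Mesenchymal markers summed to 8788 to 9027 CPM at 24 h, against 7102 to 7363 CPM at 12 h. Haemogenic markers summed to 376 to 445 CPM against 326 to 350 CPM, although Gfi1 was lower at 24 h. Endothelial markers summed to 1467 to 1472 CPM, against 1598 to 1770 CPM, and cardiac markers to 36.9 to 38.5 CPM against 49.9 to 55.2 CPM. The part of these lists in the changes was not tested.

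Between 6 h and 12 h without Dox, 3 members fell and none rose, where edgeR called 3.07% of all tested genes lower and 4.39% higher. They were mt-Nd1, at 2707 and 2522 CPM at 12 h, against 3369 and 2877 CPM at 6 h (log2 fold change −0.26 ± 0.07), Uqcrc1 (−0.22 ± 0.07) and Atp5b (−0.14 ± 0.05). Each lost its call in at least 5 of 15 alternative settings, and without no Dox replicate 1 at 6 h none of the 3 was called. There mt-Nd1 stood at −0.14; its call also ended without replicate 2 at 12 h, and those of Uqcrc1 and Atp5b without replicate 2 at 6 h or replicate 1 at 12 h. Over the same interval Polg fell by 0.25, as did Idh3a by 0.21 and Ogdh, a subunit of the oxoglutarate dehydrogenase complex, by 0.17, and mt-Rnr1 rose by 0.34. Idh3a and Ogdh lost their calls without any 1 of the 4 libraries, Polg without replicate 2 at 6 h, and mt-Rnr1 without replicate 2 at 6 h or 1 at 12 h.

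In Dox-treated cells the MT-encoded mRNAs were lower at 12 h than at 6 h and higher at 24 h than at 12 h, except mt-Nd6. Without Dox all 7 also lay below 0 at 12 h over 6 h, where 49.5% of all tested genes did. At 24 h over 12 h without Dox, 1 of the 7 lay below 0, where 48.85% of all tested genes did. Their median log2 fold changes over these intervals were −0.13 and 0.05 without Dox, against −0.34 and 0.37 with it. At 12 h of Dox, against 6 h, 20 members fell, 6 of them MT-encoded, and none rose, where edgeR called 10.1% of all tested genes lower and 8.84% higher. The count was 6 without Dox replicate 2 at 6 h, and 8 without Dox replicate 1 at 12 h. Levels of mt-Nd5 were 2007 and 1897 CPM at 12 h, against 2731 and 2706 CPM at 6 h (log2 fold change −0.48 ± 0.07, adjusted p = 2.26e-05, n = 2 each, edgeR), and it kept its call in all 15 alternatives, as Atp5c1 did (−0.38 ± 0.06). The largest fall of a nuclear-encoded gene was that of Ndufs8, an iron-sulfur subunit of complex I, at −0.45 ± 0.10; without Dox replicate 1 at 12 h or Dox replicate 2 at 6 h it was not called. At 24 h of Dox, against 12 h, 7 members rose and 4 fell, where edgeR called 7.84% of all tested genes higher and 5.98% lower; without Dox replicate 2 at 24 h, 7 members were called.

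Among those 7 were 6 of the 7 tested MT-encoded genes, at log2 fold changes of 0.29 for mt-Nd1 to 0.42 for mt-Nd5, and Cox6b2 at 0.67. Without Dox replicate 1 at 24 h the log2 fold change was 0.16 for mt-Nd2 and 0.21 for mt-Cytb, and neither was called; mt-Nd5 and mt-Co1 kept their calls in each of the 4 fits without 1 library. Those that fell were Sdhd (−0.28 ± 0.07), Uqcrc1 (−0.25 ± 0.07), Uqcrfs1 (−0.20 ± 0.05) and Atp5g3, a c-ring subunit of ATP synthase (−0.20 ± 0.07). Sdhd lost its call without Dox replicate 2 at 24 h, as did the other 3, which also lost it without Dox replicate 1 at 12 h. Uqcrc1 and Atp5g3 lost it without replicate 2 at 12 h too, and Cox6b2 lost it without replicate 1 at 24 h or 2 at 12 h. The Dox and untreated courses, and the Dox comparisons at each hour, share libraries, so they are not independent of each other.

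Whether the Dox effect itself differed between hours was tested directly. Between 6 h and 12 h no member was called by edgeR, where 0.417% of all tested genes were, and DESeq2 called 0. An unadjusted p under 0.05 was found by edgeR for 24 members. That share was not counted over all tested genes, so it cannot be set against a background. Between 12 h and 24 h 1 member was called, where 1.21% of all tested genes were. It was mt-Co1, whose Dox effect was −0.26 at 12 h and 0.12 at 24 h on the log2 scale, a change of 0.37 ± 0.09 (adjusted p = 0.0253, n = 2 each, edgeR). The call was lost without replicate 2 of either group at 12 h, either no Dox library at 24 h, or Dox replicate 1 at 24 h. The change for mt-Nd2 was 0.32 ± 0.11 with an adjusted p of 0.201, so a difference in its effect between these hours was not detectable here. For mt-Nd5 it was 0.36 ± 0.10 with an adjusted p of 0.0827.

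The nuclear-encoded genes are short, and the shortest genes of the whole table also had median log2 fold changes below 0 at 12 h and 24 h. Gene lengths implied by the ratio of counts to RPKM had a median of 1482 bases over the 85 tested nuclear-encoded genes, against 3791 bases over all tested genes, and 65 of the 85 lay in the 3 shortest of 10 equal classes of gene length. The median log2 fold change at 12 h of Dox was −0.12 in the shortest class and 0.07 in the longest. At 24 h it was −0.04 and 0.05, and at 6 h 0.03 and 0.04. For untreated cells at 24 h, against 12 h, it was −0.12 and 0.06. After each library was corrected for its trend with gene length, a step chosen after seeing the data, the median of the nuclear-encoded genes at 12 h was −0.05 with 56 of 85 below 0, and at 24 h it was −0.05 with 59 of 85 below 0. The correction left Atp5c1 as the only nuclear-encoded gene called at 12 h and ended the call of Uqcrc1 at 24 h. It kept mt-Nd2 called at 6 h and 24 h, at 0.32 and 0.59, and called it at 12 h as well, at 0.32 (adjusted p = 0.002, n = 2 each, edgeR). It also called mt-Cytb at 6 h, at 0.23 (adjusted p = 0.045, edgeR), and mt-Nd5 at 24 h, at 0.20 (adjusted p = 0.036, edgeR).

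**Figure D5:**
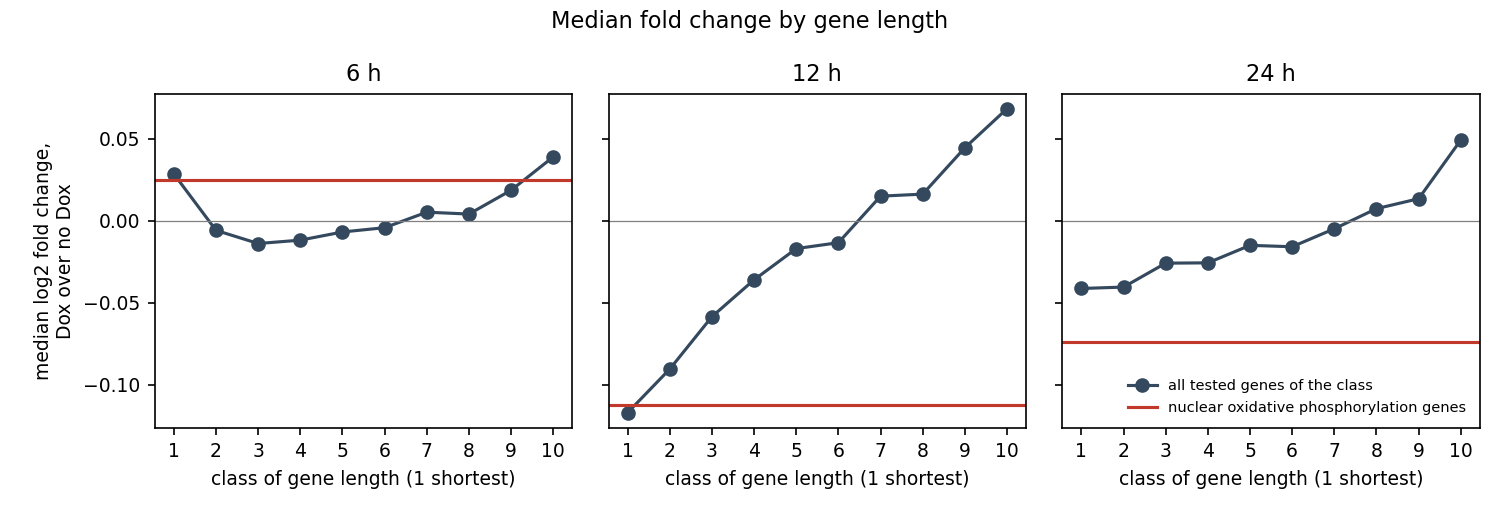
Median log2 fold change, Dox over no Dox (y axis), of all tested genes in each of 10 equal classes of gene length (x axis, 1 shortest; dark points), with the median of the 85 nuclear-encoded oxidative phosphorylation genes as a red line, at 6, 12 and 24 h. At 12 h the classes run from −0.12 in the shortest to 0.07 in the longest, and the nuclear-encoded genes at −0.11 lie near the shortest class.

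The promoters of nuclear-encoded subunits are known for sites of NRF1, of ETS factors such as GABP, and of YY1. RefSeq windows on GRCm38.p6, from 250 bases before to 50 after a start, were matched for 75 of the 91 nuclear-encoded genes and searched on both strands. The NRF1 letters, GCGCA and GCGC with any 1 base between them, stood in 25.3% of the 75 genes, against 5.19% of all 27025 genes with a window. The ETS letters CCGGAAG stood in 22.7% against 9.93%, and the YY1 letters AAGATGGC in 14.7% against 3.19%. A match of letters is a description of the window and not a site shown to be bound. The windows of Sdhd and Uqcrc1 are shown as examples of the NRF1 letters, since they hold the most matches among the 6 nuclear-encoded genes called with Dox. Of the other 4, Atp5c1 held the NRF1 letters in 1 of 2 windows, Atp5f1 held only the YY1 letters, Ndufb6 only the ETS letters, and Ndufa1 none of the 3. Capitals mark the NRF1 letters in each window, in Uqcrc1 first as their reverse complement and then forward, and in Sdhd also the reverse complement of the ETS letters nearer the start. Sdhd lies at chr9:50603800-50604099 on the minus strand and Uqcrc1 at chr9:108936398-108936697 on the plus strand.
Sdhd: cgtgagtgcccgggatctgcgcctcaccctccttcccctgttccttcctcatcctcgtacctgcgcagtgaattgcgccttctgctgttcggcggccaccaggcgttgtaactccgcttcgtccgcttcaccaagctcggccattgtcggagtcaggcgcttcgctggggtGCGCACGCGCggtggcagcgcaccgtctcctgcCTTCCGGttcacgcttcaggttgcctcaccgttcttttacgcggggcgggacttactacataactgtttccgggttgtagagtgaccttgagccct
Uqcrc1: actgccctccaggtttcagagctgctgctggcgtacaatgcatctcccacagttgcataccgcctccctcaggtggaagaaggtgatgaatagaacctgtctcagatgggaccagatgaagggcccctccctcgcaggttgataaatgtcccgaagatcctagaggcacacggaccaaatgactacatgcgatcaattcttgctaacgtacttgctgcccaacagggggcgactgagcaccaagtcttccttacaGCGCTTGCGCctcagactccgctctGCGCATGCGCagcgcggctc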

How the data were processed

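RNA-seq libraries of 6 groups, 2 each, were read from a deposited table of whole-number counts per gene, made by the authors from 75-base reads. The submitters' processing notes name Bowtie2 2.21 and GRCm38, and also SAMtools 0.1.19, edgeR 3.8.5 under R 3.1.0, and bcl2fastq 2.16.0.10. Which tool counted reads, with what strand setting and annotation release, was not given in the sources used here. RPKM values were also deposited by the authors, per the file headers, and served for levels between genes, gene lengths and one alternative test. In each count and RPKM table all value columns were matched to a sample. No row lacked a gene name.

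Counts were fitted with edgeR 4.0.16 in R 4.3.3. The steps were filterByExpr, TMM scaling, 1 mean per group over all 12 libraries, which leaves 6 residual degrees of freedom, and the quasi-likelihood test. P-values were adjusted by Benjamini-Hochberg over 15347 genes, with calls at an adjusted p under 0.05. The biological coefficient of variation was 4.71%. Replicates differed by more than sampling noise, with a chi-square per degree of freedom of 2.63 to 4.61. CPM are counts relative to the TMM-scaled library size, times 1e+06. The script was tested on simulated data.

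Members and gene lists were chosen with earlier results of these data known. Named genes were the tested MT-encoded genes, all called nuclear-encoded genes at each Dox hour, up to 5 in each direction in the other comparisons, the subunit isoforms, the highest gene of each complex and up to 4 called genes of each further list. Alternatives were other scalings and filters, a replicate block, DESeq2 1.42.0, limma 3.58.1 on log2(RPKM + 1) and log2(RPKM + 0.1), and leaving out each library. Ratios between MT-encoded RNAs, a block on depth and a length correction were added after seeing the data.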

Additional observations from a re-analysis of the deposited data

Results flagged for a closer look

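The Dox effect on mt-Co1, the catalytic subunit of cytochrome c oxidase, differed between hours. Its log2 fold change was 0.12 at 24 h and −0.26 at 12 h, and the difference of 0.375 was tested itself in the model over all libraries (edgeR, adjusted p = 0.0253, n = 2 each). The call was lost in 8 of 19 alternative settings, 5 of them fits without 1 library, with log2 differences of 0.30 to 0.47 and adjusted p-values of 4.84e-09 to 0.588 over all 19.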

How the results depend on the processing

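Counts of called members depended on the filter, the test and single libraries, and the cause was not tested. With edgeR as described, 1, 6 and 4 members were called at 6, 12 and 24 h of Dox, 3 and 19 in untreated cells at 12 h over 6 h and 24 h over 12 h, 20 and 11 in the same intervals with Dox, and 0 and 1 for the change of the Dox effect. Without a filter, 3, 15 and 8 were called at 6, 12 and 24 h of Dox, and 5 and 6 for the change of the Dox effect. DESeq2 called 0, 1 and 1 at the 3 hours, 1 in untreated cells at 12 h over 6 h, 13 and 7 in the Dox course, and 0 for the change from 12 h to 24 h. On log2(RPKM + 1), limma called 0, 0 and 1 at the 3 hours, 0 and 7 in untreated cells, 5 and 3 in the Dox course and 0 for the last change. On log2(RPKM + 0.1) it called 0, 0 and 1, then 0 and 6, 5 and 2, and 0. The length correction gave 2 at 6 h, 3 at 12 h and 5 in untreated cells at 12 h over 6 h. Deviations of libraries with the same replicate number correlated at −0.268, 0.0739 and 0.0655 at 6, 12 and 24 h. At each hour the same number joined a deep and a shallow library. For replicate 1 at 6 h these held 14544054 counts with Dox and 28444464 without it. The correlations therefore cannot tell whether libraries with the same number shared a culture or batch. With the number as a replicate block, 2 members were called at 6 h, 5 in untreated cells at 12 h over 6 h and 2 for the change from 12 h to 24 h. A crossed pairing by depth, added after seeing the data, called 1, 5 and 4 at the 3 hours. Leaving out 1 library gave 0 to 2, 1 to 6 and 1 to 4 called members at 6, 12 and 24 h of Dox. It gave 0 to 3 and 4 to 20 in untreated cells, 6 to 25 and 7 to 15 in the Dox course, and 0 to 2 and 0 to 6 for the change of the Dox effect. The MT-encoded median minus the nuclear-encoded median was 0.07, 0.13 and 0.36 at the 3 hours, and without 1 library it ran from −0.020 to 0.27, from −0.064 to 0.15 and from 0.20 to 0.40. Of the named values, 898 kept their direction and their side of the threshold, 244 lost a call, 16 gained one and 14 turned their sign. All 14 were uncalled MT-encoded mRNAs. For mt-Nd6 at 6 h the value was −0.00041 with upper-quartile scaling, −0.013 and −0.014 with limma at the 2 pseudocounts, −0.0037 with the length correction, and without 1 library it ran from −0.25 to 0.28. Without 1 library at 6 h mt-Nd1 ran from −0.14 to 0.089, mt-Nd5 from −0.064 to 0.25 and mt-Co1 from −0.075 to 0.18. At 12 h mt-Nd4 ran from −0.051 to 0.10, mt-Nd6 from −0.12 to 0.82 and mt-Cytb from −0.022 to 0.090, and at 24 h mt-Nd1 from −0.11 to 0.21. With 2 libraries a group, small differences in lowly counted genes such as mt-Nd6, Cox4i2 and Ndufa4l2 were not detectable at this depth.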
